A study of Dunaliella tertiolecta with 6 samples.

Results

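The 73 genes described here are the nuclear genes of the green alga Dunaliella tertiolecta whose symbol in the deposited annotation is that of a protein of the cytosolic ribosome. They were chosen by symbol alone (RPL, RPS or RPLP followed by a number, on a nuclear scaffold) from 14354 genes in the expression table, of which 3366 nuclear genes have a symbol, and no measured value entered the choice. Of the 73, 44 carry large-subunit and 29 small-subunit symbols. RNA came from wild-type vegetative cells of strain UTEX LB 999 grown as shaken liquid cultures in constant light. All cultures shared a medium with 2 M NaCl and differed in added iron, which was 0 µM in 3 libraries and 1.5 µM in the other 3. RNA was taken after 2 days by the titles and the design text, whereas the growth protocol says 3. The flasks were inoculated from precultures whose number is not given, so the p-values rest on variation between flasks.

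The cytosolic ribosome of eukaryotes has a small subunit, which binds mRNA and decodes it, and a large subunit, which forms the peptide bond. Its proteins are made in near-equal numbers, and in growing cells their mRNAs are among the most abundant of the cell. In animals, plants and fungi their synthesis is linked to growth through the TOR kinase. The question here is how the levels of these mRNAs, their share of the transcriptome and their spread between libraries compare with and without added iron.

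The genes were expressed at high levels at both iron concentrations, as the plot of levels by gene shows. Levels are in FPKM, fragments scaled to transcript length and library size, as the authors deposited them, so they are per length. Of the 73 genes, 69 averaged 1000 FPKM or more across all libraries, out of 152 such genes in the whole table. These 69 ran from 1000.2 to 12417 FPKM with a median of 4123 FPKM, a 12.4-fold range. Of the 100 genes with the highest means in the table, 64 were ribosomal protein genes, and of the highest 20, 12 were.

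**Figure D1:**
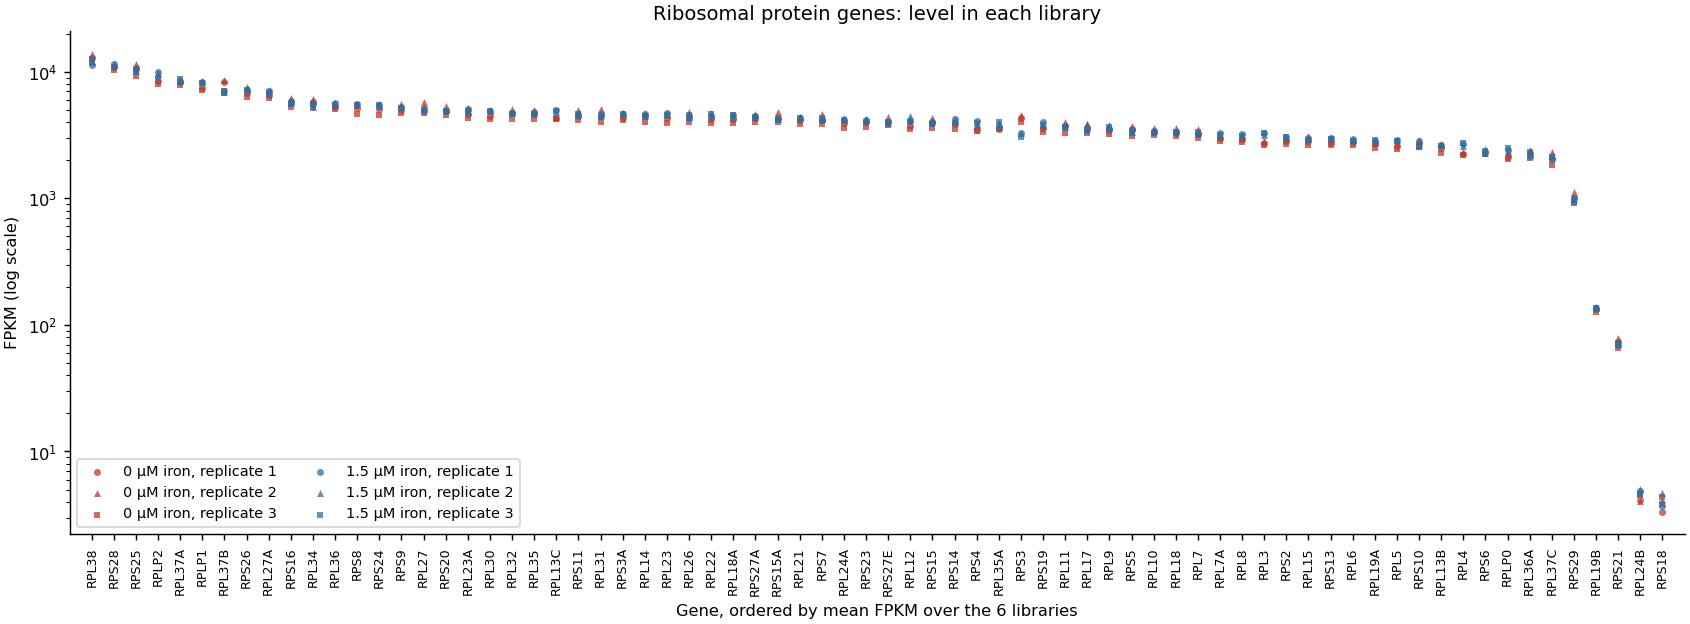
Level of 72 of the 73 ribosomal protein genes in each library, in FPKM on a log axis, with genes ordered by their mean over the 6 libraries; colours mark the iron level and symbols the replicate. The 6 points of a gene lie close together, 69 genes lie at or above 1000 FPKM by their mean, and RPL19B, RPS21, RPL24B and RPS18 lie far below.

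RPL38 had the highest mean. It encodes a small protein of the large subunit, known in mouse for its part in translating Hox mRNAs. It stood at 12828, 13804 and 12062 FPKM without added iron and at 11230, 12050 and 12530 FPKM with it. RPS28, of the small subunit, followed at 10866, 11512 and 10305 against 11555, 11378 and 10930 FPKM, and RPS25 at 10708, 11539 and 9246 against 10462, 10215 and 10166 FPKM. The groups overlapped for each of these genes. The 10 highest genes all had coding sequences of at most 444 nt and together made up 27.8% of the summed FPKM of the 73.

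Level and coding length ran in opposite directions across the 69 genes at or above 1000 FPKM (Spearman's rho -0.67 across genes, a description over genes that share the same libraries). None of the 73 gene models has an exon base outside its coding sequence, so the model length is the coding length alone. Among the 69 it ran from 168 nt for RPS28 to 1215 nt for RPL4. With FPKM multiplied by the coding length in kilobases, the range over the 69 genes narrowed to 6.15-fold. This product undoes the division by length only if FPKM was divided by that annotated length, which was not checked. How far library preparation or the length correction of short models enters the order of levels was not tested.

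The group means of the summed level of these genes were close, but their shares of the libraries differed. The FPKM sum over the 73 genes was 306785, 331466 and 284704 without added iron and 316638, 316074 and 313137 with it. The groups overlapped, and the mean without iron was lower by 2.42%. The sum over all other genes was 549844, 566685 and 523888 without added iron against 682654, 705393 and 669167 with it, without overlap. As a share of the library's FPKM sum, the 73 genes took 35.8%, 36.9% and 35.2% without added iron (36.0% ± 0.859, SD, n = 3) and 31.7%, 30.9% and 31.9% with it (31.5% ± 0.494, SD, n = 3). All 3 shares without iron therefore lay above all 3 with iron, a difference of 4.47 percentage points, while the summed level of the genes themselves was not higher.

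**Figure D2:**
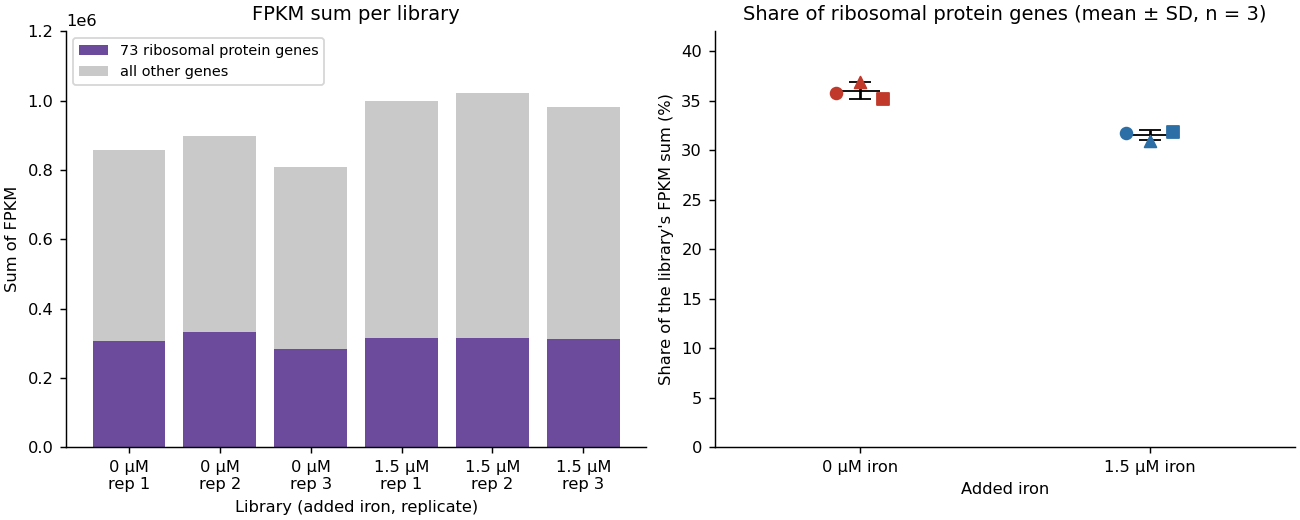
Left, FPKM sum of each library, split into the 73 ribosomal protein genes and all other genes. Right, share of the 73 genes in percent, with each library as a point and the mean ± SD over 3 libraries; the shares run from 35.2% to 36.9% without added iron and from 30.9% to 31.9% with 1.5 µM.

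The nuclear genes with LHC, PSA or PSB symbols, which encode light-harvesting and photosystem proteins (45 genes), summed to 63906, 69984 and 60895 FPKM without added iron and to 164177, 174986 and 160286 FPKM with it. Their mean difference of -101555 FPKM stands beside one of -138933 FPKM for all genes other than the 73. This grouping was chosen after the shares were seen, and its part in the difference between the shares was not tested. Weighted by coding length, the ribosomal protein genes took 21.5%, 22.2% and 20.1% without added iron. With added iron they took 19.5%, 19.2% and 19.5%, again without overlap. Such weighting brings the share closer to a share of fragments where FPKM was divided by that length.

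Tested gene by gene on log2(FPKM + 1) over all 11273 genes with a mean of at least 1 FPKM, 4 of the 73 genes passed a limma adjusted p of 0.05, and all 73 were tested. That is 5.48% of them, where 30.2% of all tested genes passed. One, RPS3, rose without added iron, where 11.6% of all tested genes rose. The other 3, RPL3, RPL4 and RPL13C, fell, where 18.7% of all tested genes fell. The iron levels did not overlap in any library for 16 of the 73 genes (21.9%), 2 higher and 14 lower without iron, against 47.5% of all tested genes. The 83 other genes with a mean of at least 1000 FPKM had 11 rising and 52 falling, 75.9% called in all, with a median log2 fold change of -0.62.

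**Figure D3:**
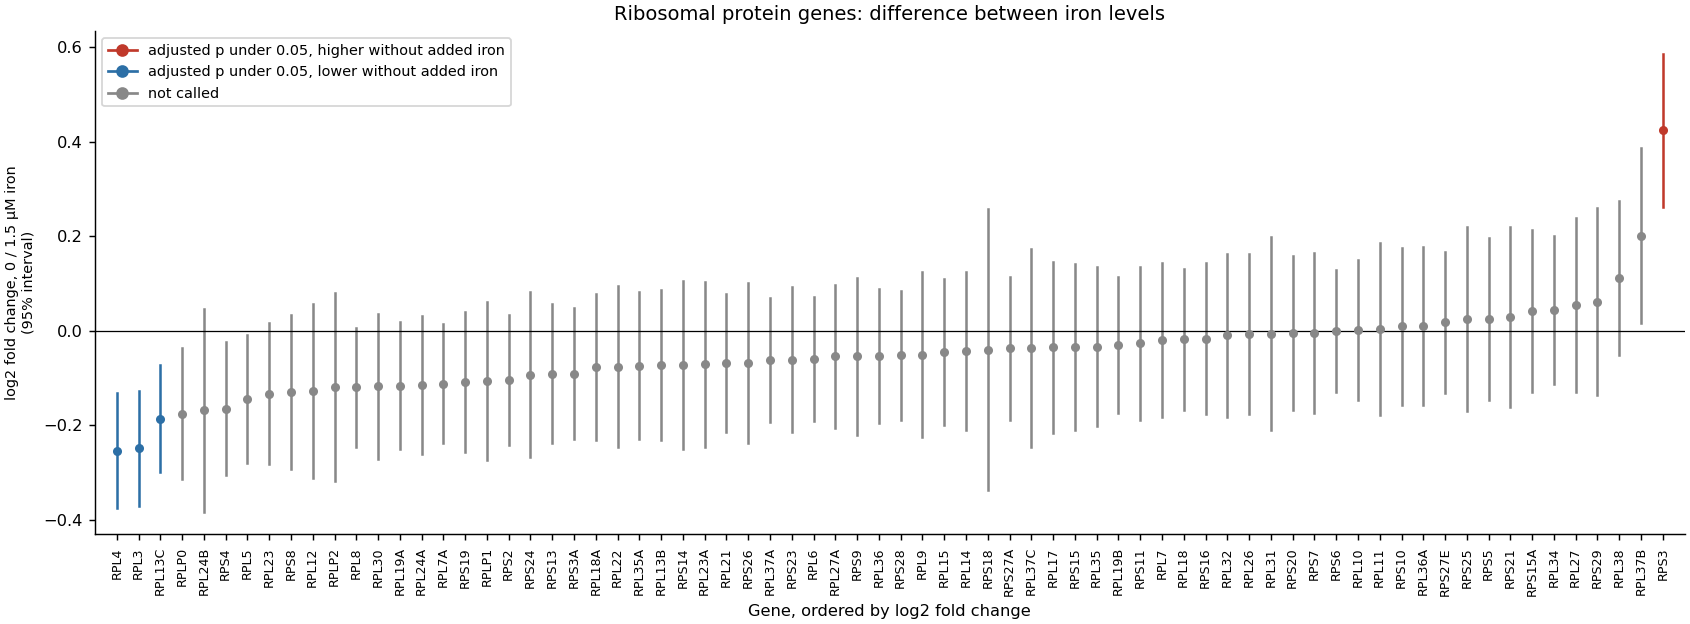
Log2 fold change of 72 of the 73 ribosomal protein genes, 0 against 1.5 µM iron, with its 95% interval from limma; colour marks genes past an adjusted p of 0.05. RPS3 stands at 0.42 on the right, RPL4, RPL3 and RPL13C at -0.25, -0.25 and -0.19 on the left, and the other genes shown between -0.18 and 0.20.

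The log2 fold changes of the 73 genes had a median of -0.05 and quartiles of -0.10 and -0.01, beside a median of -0.03 and quartiles of -0.27 and 0.19 over all tested genes. Beside a median also below 0 over all tested genes, fold changes were below 0 for 57 of the 73 genes and above 0 for 16. The 95% interval of the difference lay within 1.25-fold in either direction for 67 of them. The exceptions were RPS3, RPL3, RPL4 and RPL37B, and RPL24B and RPS18, which had means of 4.54 and 4.02 FPKM. The sums of FPKM differed between the groups, so these values hold for the deposited scaling. With equal FPKM sums 63 of the 73 genes rose and none fell, where 28.3% of all tested genes rose and 9.64% fell. Under quantile normalization 51 rose and none fell, where 15.1% of all tested genes rose and 17.8% fell.

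RPS3 sits at the mRNA entry channel of the small subunit and is known in mammals and yeast also for roles outside decoding, such as ribosome quality control. The gene (Dte_g11954) lies on scaffold_09 of the authors' assembly from 11135803 to 11139132, on the plus strand. Its levels were 4332, 4591 and 3992 FPKM without added iron and 3306, 3267 and 3046 FPKM with it. Every library without iron stood above every library with iron, at 4305 ± 300 against 3206 ± 140 FPKM (SD, n = 3), a ratio of 1.34. The log2 fold change was 0.42 (SE 0.07, limma adjusted p = 0.003529). RPS3 passed in each of the 17 alternative settings, with log2 fold changes from 0.38 to 0.72 and adjusted p from 5.214e-06 to 0.02347. Relative to the median ribosomal protein gene of the same library, RPS3 stood at 1.08, 1.05 and 1.05 without added iron and at 0.801, 0.771 and 0.758 with it.

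RPL3 and RPL4 encode large-subunit proteins that in yeast join the pre-ribosome early and have dedicated chaperones. RPL4 (Dte_g11919, scaffold_09, 10648710 to 10654766) stood at 2248, 2305 and 2202 FPKM without added iron and at 2692, 2613 and 2752 FPKM with it, a log2 fold change of -0.25 (SE 0.05, limma adjusted p = 0.009502). RPL3 (Dte_g04645, scaffold_14, 3437329 to 3440786) stood at 2739, 2820 and 2641 against 3277, 3186 and 3284 FPKM, also -0.25 (SE 0.05, limma adjusted p = 0.0104). RPL13C (Dte_g11682, scaffold_09, 7671138 to 7673308) stood at 4313, 4431 and 4252 against 4979, 4858 and 4947 FPKM (-0.19, SE 0.05, limma adjusted p = 0.02442). The groups did not overlap for any of these genes.

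The direction of these falls depended on the scaling, and the calls also on single libraries. With equal FPKM sums RPL4 and RPL3 stood at -0.024 and -0.020 and RPL13C at 0.043, with no call, and under quantile normalization RPL4 (0.37) and RPL3 (0.18) were called higher. Without 1.5 µM replicate 3 the calls of RPL4, RPL3 and RPL13C were lost (limma adjusted p = 0.058, 0.05951 and 0.1119), at log2 fold changes of -0.24, -0.24 and -0.18 that were close to those from all libraries. RPL3 was also lost without 1.5 µM replicate 1 (0.0533), and RPL13C without 0 µM replicate 1 or 1.5 µM replicate 1 or 2 (0.07992, 0.1145 and 0.06618), with median-ratio scaling (0.1125) and without the variance trend (0.08629). RPL4 and RPL3 have the longest coding sequences of the 69 genes at or above 1000 FPKM, 1215 and 1164 nt. Over those 69 genes the log2 fold change and the coding length had a Spearman's rho of -0.33, a description across genes that share libraries.

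Among the other large-subunit genes, those of the stalk, which recruits the GTPase translation factors, all had lower means without added iron and none passed. RPLP0, the stalk base, stood at 2142, 2269 and 2042 FPKM against 2420, 2372 and 2494 FPKM, without overlap (log2 fold change -0.18, 95% interval -0.32 to -0.04, limma adjusted p = 0.06063). The acidic stalk proteins RPLP1 and RPLP2 are bound to that base in more than 1 copy per ribosome. Their FPKM was higher, on coding sequences of 324 and 327 nt against 942 nt for RPLP0. Multiplied by coding length in kilobases, the means were 2583 and 2992 against 2157. Whether copy number bears on these levels was not tested. RPLP1 stood at 7444, 8482 and 7138 against 8327, 8295 and 8148 FPKM, and RPLP2 at 8495, 9840 and 8012 against 9938, 9619 and 8992 FPKM, each with overlap. Per length, RPLP2 ranked 4 and RPLP1 ranked 6 among the 73 genes and RPLP0 ranked 66.

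RPL5 and RPL11 bind 5S rRNA together before they join the large subunit. RPL5 stood at 2577, 2734 and 2454 FPKM without added iron and at 2879, 2869 and 2827 FPKM with it, without overlap (-0.14, 95% interval -0.28 to -0.01, limma adjusted p = 0.09924). RPL11 stood at 3732, 4047 and 3312 against 3715, 3636 and 3681 FPKM, with overlap (0.00, 95% interval -0.18 to 0.18, limma adjusted p = 0.9811). RPL10, which joins the large subunit late, stood at 3352, 3615 and 3176 against 3427, 3418 and 3276 FPKM, also with overlap.

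In the small subunit, RPS6 is the classical substrate of S6 kinase in the TOR pathway. Its levels were 2344, 2434 and 2226 FPKM without added iron and 2339, 2303 and 2366 FPKM with it. The groups overlapped and the means were 2335 ± 104 and 2336 ± 31.9 FPKM, with a 95% interval of the log2 fold change from -0.13 to 0.13. RPS27A, whose symbol is used in mammals for a ubiquitin fused to a small-subunit protein, stood at 4352, 4620 and 4002 against 4505, 4433 and 4357 FPKM, with overlap. RPS4 stood at 3484, 3791 and 3403 against 4104, 3889 and 3969 FPKM, without overlap (-0.16, limma adjusted p = 0.07753). By subunit, the median log2 fold change was -0.06 for the 44 large-subunit genes and -0.03 for the 29 small-subunit genes. The small-subunit genes took 39.9%, 40.0% and 39.8% of the summed FPKM of the 73 without added iron and 39.7%, 39.5% and 39.3% with it.

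Several symbols come as lettered versions, of which some letters denote a copy and others a different protein (in mammals RPL37 and RPL37A are distinct proteins), and the annotation does not say which applies. RPL37B was the next highest fold change after RPS3. It stood at 8252, 8624 and 7058 FPKM without added iron and at 7005, 6941 and 6803 FPKM with it, without overlap (0.20, SE 0.08, limma adjusted p = 0.09664, and 0.04611 with the replicate number as a block). RPL37A stood at 8462, 8477 and 7800 against 8354, 8660 and 8816 FPKM, with overlap (-0.06, limma adjusted p = 0.4303). RPL37C was lower at 2056, 2325 and 1835 against 2040, 2190 and 2118 FPKM. No 2 of the 73 genes had the same values in all libraries.

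The RPL24 and RPL19 pairs had 1 high and 1 low version each. RPL24A stood at 3940, 4127 and 3620 FPKM without added iron and at 4190, 4292 and 4165 FPKM with it. Its neighbour RPL24B, 9379 nt downstream on the same strand of scaffold_03, stood at 4.10, 4.05 and 4.49 against 4.90, 5.06 and 4.62 FPKM. RPL19A stood at 2678, 2790 and 2514 against 2853, 2881 and 2913 FPKM, and RPL19B at 135, 139 and 128 against 137, 135 and 137 FPKM. The groups did not overlap for RPL24A, RPL24B and RPL19A, which were lower without iron, and overlapped for RPL19B. None of these genes passed (limma adjusted p = 0.1995, 0.2037, 0.1637 and 0.7413 in that order). RPL13B was lower than RPL13C, at 2505, 2684 and 2299 against 2635, 2656 and 2575 FPKM.

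The label of the group was checked against gene models and levels, and it was doubtful for some symbols. RPS18 had a mean of 4.02 FPKM, the lowest of the 73, on a model with 13 coding exons and 1515 nt of coding sequence. RPS21, which encodes one of the smallest small-subunit proteins in other eukaryotes, had a mean of 71.5 FPKM on a model of 7098 nt. RPL24B and RPL19B also have longer coding sequences (942 and 828 nt) than RPL24A and RPL19A (456 and 645 nt). FPKM divides by model length, so the level of a short transcript inside a long model is understated. With mean FPKM multiplied by the coding length in kilobases, RPS18, RPL24B and RPL19B still stood at only 6.08, 4.27 and 112. On that scale RPS21 stood at 507, and the lowest of the 69 genes at or above 1000 FPKM at 576. Whether these models hold the named proteins was not tested. The 4 genes with means under 1000 FPKM made up 0.069% of the summed FPKM of the 73, so the shares do not rest on them. RPS29, next lowest at a mean of 1000.2 FPKM, stood at 1011, 1133 and 924 against 1013, 992 and 929 FPKM, with overlap. It also has a model of 576 nt, and it encodes a very small protein in other eukaryotes.

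The symbols RPS12, RPS30, RPL10A, RPL29, RPL39, RPL40 and RPL41 do not occur in the group. Whether genes for these proteins lie among those without a symbol was not tested. The shares given for the group therefore need not cover the whole cytosolic ribosome. The symbol rule left out 3 genes with related symbols. RPSA1B, for the small-subunit protein SA, stood at 2505, 2651 and 2381 FPKM without added iron and at 2782, 2734 and 2732 FPKM with it, without overlap (-0.13, limma adjusted p = 0.1261). RPSA1A stood at 1.17, 1.21 and 1.76 against 1.24, 1.58 and 1.11 FPKM. RPL7AE stood at 499, 572 and 483 against 560, 630 and 588 FPKM (-0.20, limma adjusted p = 0.1161). RACK1, a scaffold protein on the small subunit, stood at 1889, 1928 and 1806 against 2131, 2002 and 2033 FPKM, without overlap (-0.13, limma adjusted p = 0.1111).

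The genes varied little between replicates with added iron and more without it, and without added iron they moved together, as the plot of deviations by library shows. The median coefficient of variation between the 3 libraries was 1.88% with 1.5 µM iron and 7.55% without added iron, beside 9.08% and 9.48% over all tested genes. The tested genes reach down to a mean of 1 FPKM, and the spread was not compared with that of other genes of similar level. For 72 of the 73 genes the variation was larger without added iron, a count that was not taken over all tested genes. The genes share these libraries and moved together in them, so the 72 are not separate observations. At 0 µM, replicate 2 was the highest of the 3 libraries for 71 of the 73 genes and replicate 3 the lowest for 70. Over all tested genes replicate 2 was the highest for 37.0% and replicate 3 the lowest for 27.2%. At 1.5 µM no library had such a place, and replicates 1, 2 and 3 were the highest for 36, 20 and 17 of the genes.

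**Figure D4:**
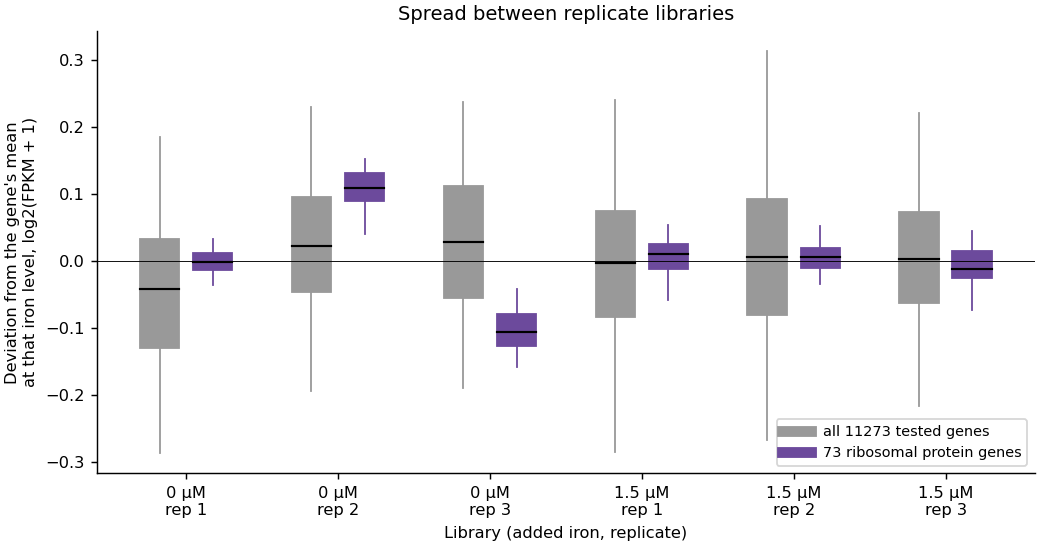
Deviation of each gene's log2(FPKM + 1) from its mean over the 3 libraries of the same iron level, for all tested genes (grey) and the 73 ribosomal protein genes (purple); boxes span the quartiles, whiskers the 5th to 95th percentile and black lines mark medians. The ribosomal protein genes lie at a median of 0.11 in 0 µM replicate 2 and -0.11 in 0 µM replicate 3, and near 0 in the other libraries.

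Each library was then divided by the median of its own 73 levels. The median coefficient of variation without added iron fell from 7.55% to 2.03%, and with added iron it rose from 1.88% to 3.13%. That divisor was 4128, 4236 and 4016 FPKM in 1.5 µM replicates 1, 2 and 3, and its part in the rise was not tested. The median deviation of the 73 genes was 0.11 in 0 µM replicate 2 and -0.11 in 0 µM replicate 3 on the log2 scale, where all tested genes had medians of 0.02 and 0.03. This shared shift enters the fold changes. Without 0 µM replicate 2 their median was -0.10 with 8 genes called lower and 1 higher, where 14.0% of all tested genes were lower and 7.07% higher. Without 0 µM replicate 3 it was -0.01 with 3 lower and 2 higher, where 16.8% and 8.38% of all tested genes were. Without 1.5 µM replicate 3 no gene was called lower and RPS3 alone was higher, where 13.3% and 7.42% of all tested genes were. FPKM sums moved with the shift, from 898151 in 0 µM replicate 2 to 808592 in 0 µM replicate 3, and the part of the sums in it was not tested.

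Each library was also scaled by the median ratio of its ribosomal protein genes to their own geometric means over the 6 libraries. This setting was chosen after seeing the data and differs from the division by the median level above. Differences within the group could then be read apart from the shared shift. By construction the group then has a median near 0 (-0.00), and variation that its genes share between libraries is taken out. The SE went from 0.069 as deposited to 0.037 for RPS3 and from 0.079 to 0.034 for RPL37B. The p-values on this scale therefore leave out that shared variation. Among the 4 genes called higher without added iron were RPS3 (log2 fold change 0.47, limma adjusted p = 1.887e-05), RPL37B (0.25, limma adjusted p = 0.0007429) and RPL38 (0.16, limma adjusted p = 0.02073). Those called lower were RPL4, RPL3, RPL13C, RPLP0 and RPS4, at -0.20, -0.20, -0.14, -0.13 and -0.12. On this scale 9 of the 73 genes were called, where 25.9% of all 11273 tested genes were.

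Whether the group as a whole was higher, lower or level depended on the scaling between libraries, as the plot of fold changes by scaling shows. As deposited and with median-ratio scaling the median of the 73 genes was -0.05 and -0.00, beside -0.03 and 0.01 for all tested genes. With equal FPKM sums it was 0.18, and the median of all tested genes moved to 0.17, so the group stood 0.01 from it. Under quantile normalization the group's median was 0.18 while that of all tested genes was 0.02. Total mRNA per cell was not measured here, so the scalings cannot be told apart by these data. RPS3 had the highest fold change of the 73 genes under each of these scalings.

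**Figure D5:**
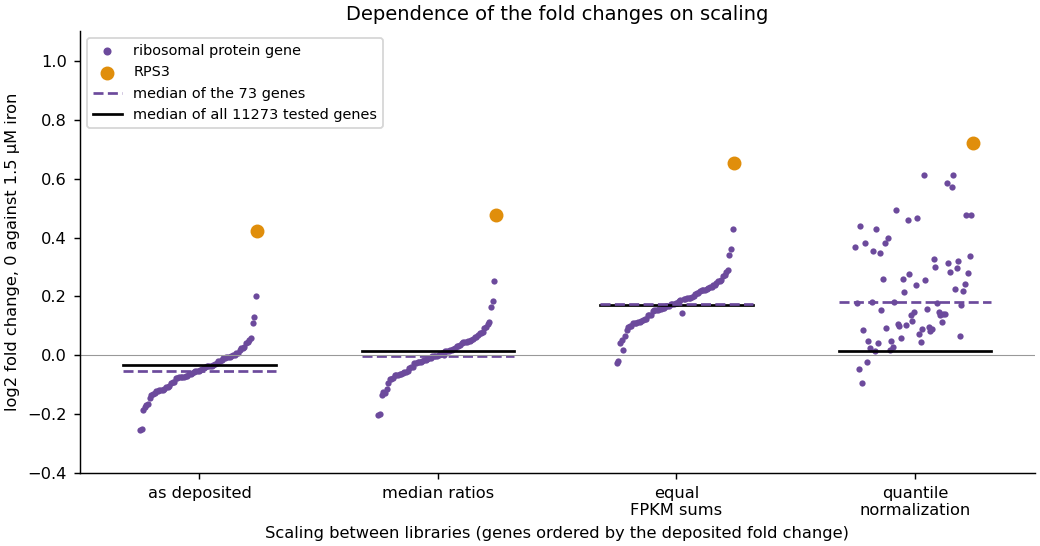
Log2 fold change of each of the 73 genes, 0 against 1.5 µM iron, under 4 scalings between libraries; the dashed line is their median, the black line the median of all 11273 tested genes and the orange point RPS3. The group's median is -0.05 as deposited and 0.18 with equal sums, and RPS3 is highest in each.

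Genes of the wider translation machinery were read from lists made by symbol. All 35 genes for plastid ribosomal proteins fell, where 18.7% of all tested genes fell. Their median log2 fold change was -0.57, and between 31 and 34 fell under the other scalings. PRPS1 stood at 156, 149 and 151 FPKM against 292, 289 and 303 FPKM (-0.95, limma adjusted p = 2.623e-05), PRPS20 at -0.82 and PSRP7 at -0.66. Of 68 genes for mitochondrial ribosomal proteins 6 rose and 3 fell (median 0.06), where 11.6% of all tested genes rose and 18.7% fell. MRPL10 (-0.53) and MRPL6 (-0.51) fell and MRPL43 (0.53) rose. With equal FPKM sums 34 of the 68 rose and 2 fell, a scaling that moved the median of all tested genes to 0.17 and under which 28.3% of them rose. Of the 9 calls in this list, 4 were left without 0 µM replicate 2 and 5 without 1.5 µM replicate 3. The 73 cytosolic genes, the plastid list and the mitochondrial list share all their libraries, and differences between the lists were not tested.

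Of 22 initiation factor genes 6 fell and none rose (median -0.12), where 18.7% of all tested genes fell and 11.6% rose. With equal FPKM sums, though, 6 rose and 2 fell, where 28.3% of all tested genes rose and 9.64% fell. EIF5A, whose protein carries the modified residue hypusine and aids peptide bond formation, stood at 1612, 1692 and 1604 FPKM without added iron and at 2204, 2278 and 2335 FPKM with it (-0.47, limma adjusted p = 0.000619), but it was 0.23 higher under quantile normalization. EIF5B1 (-0.47) and EIF3C (-0.43) fell as well, and EIF3C was not called with equal sums. EEF1A, which delivers aminoacyl-tRNA to the ribosome and was the 1 gene of the elongation list, stood at 3561, 3729 and 3562 against 4844, 4865 and 4860 FPKM (-0.43, limma adjusted p = 0.0006455). It fell under each scaling. EF3, whose symbol is that of a fungal elongation factor, lay outside the list and is named after its values were seen. It fell from 844 ± 26.2 to 491 ± 30.8 FPKM (-0.78, limma adjusted p = 0.0001418).

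Of 13 ribosome biogenesis genes 5 fell and none rose (median -0.20), where 18.7% of all tested genes fell and 11.6% rose. With equal FPKM sums, in contrast, 4 rose and 1 fell, where 28.3% of all tested genes rose and 9.64% fell. The count called was 3 with median-ratio scaling and 2 under quantile normalization, 4 without 1.5 µM replicate 2 and 3 without any other single library. NOP58, of the small nucleolar particles that guide rRNA methylation, stood at 122, 126 and 128 FPKM without added iron and at 177, 181 and 179 FPKM with it (-0.51, limma adjusted p = 0.0006046). TSR1 (-0.37) and NOP56 (-0.32) fell as well, and neither was called with equal sums. TOR1, for the TOR kinase, fell from 13.2 ± 0.927 to 7.22 ± 0.382 FPKM (-0.79, limma adjusted p = 0.0005507), and it fell under each scaling. RAPTOR1 did not pass (-0.02, limma adjusted p = 0.8218). LST8 rose by 0.24 (limma adjusted p = 0.03373), a call lost when any library was left out, at adjusted p from 0.06273 to 0.09623. S6K1 fell by 0.43 on the log2 scale (limma adjusted p = 0.04535), a call lost with equal sums (0.3166) and in most other settings.

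The 73 genes lie on 13 of the 18 nuclear scaffolds, with at most 13 on one, scaffold_05. Besides the RPL24 pair, RPS4 and RPL11 (scaffold_09) and RPL6 and RPLP2 (scaffold_14) are neighbours with no annotated gene between them, both pairs facing away from each other, 23398 and 8455 nt apart. RPS4 and RPL11 had log2 fold changes of -0.16 and 0.00, and RPL6 and RPLP2 of -0.06 and -0.12. The genes had a median of 5 coding exons and 489 nt of coding sequence, against 7 and 1047 nt over all nuclear genes, and RPL35A alone had 1 coding exon.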

How the data were processed

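RNA was measured in 6 libraries, 3 per iron level, grouped by their labels. The authors deposited FPKM per gene and library. As the design text states, RNA was poly(A)-selected and read from a single end over 50 nt. STAR 2.4.0j and Cuffdiff 2.0.2 are the tools given by the submitters' processing notes. Coordinates and symbols are from the deposited annotation of the authors' assembly. The read depth per library was not used here and is unknown, so no counting intervals are given, and FPKM got no count model. Groups were compared with limma 3.58.1 (R 4.3.3) on log2(FPKM + 1), eBayes with trend, two-sided, Benjamini-Hochberg adjusted over 11273 genes with a mean of at least 1 FPKM. Fold changes of low genes are understated on this scale. The fit was tested on simulated data. The median SE was 0.07 for the 73 genes and 0.11 for all tested genes. Same-numbered libraries deviated together (correlations 0.239, 0.262 and 0.168 across genes), so replicate numbers may mark pairs, by the data and not the labels. The main fit leaves this pairing out. A fit with the replicate number as a block was an alternative, with 3973 genes called where the main fit called 3408. Others were pseudocounts of 0.1 and 0.01 FPKM, no filter or 5 FPKM, median-ratio, quantile and equal-sum scaling, robust eBayes, no trend, each library left out, and other denominators of the share. Genes and lists were chosen with earlier results of these data known. Named genes are the highest and lowest levels, those past the threshold, the largest fold changes, stalk, 5S and ubiquitin-fusion proteins, lettered copies, up to 3 per list by smallest p and TOR pathway symbols. Not every gene that this rule admits is described, and 1 of the 73 is counted but not reported here by itself. Tables and figures used pandas 2.3.3 and matplotlib 3.10.9 in Python 3.11.15.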

Additional observations from a re-analysis of the deposited data

How the results depend on the processing

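RPS3 kept its direction and its call in all 17 alternatives. Of the 73 genes, 63 rose and 0 fell with equal FPKM sums, and 51 rose and 0 fell under quantile normalization. Scaled to their own median ratio, 4 rose and 5 fell, 9 in all. With the replicate number as a block 2 rose and 3 fell, RPL37B being added, and S6K1 and LST8 stayed called, so the block ended no call of a gene named here. Leaving out single libraries gave between 1 and 9 called, 0 to 8 lower and 1 or 2 higher, with the fewest without 1.5 µM replicate 3 (1) and replicate 1 (2) and the most without 0 µM replicate 2. Over all genes 3408 were called, 4275 with equal sums, 3973 with the block and 2340 to 3193 without 1 library. Pseudocounts, filters and robust eBayes left the counts of called ribosomal protein genes as they were. The share difference of 4.47 percentage points was 4.74 over nuclear genes. Without the 100 highest genes, where 9 of the 73 genes are left, it was 0.215 percentage points on much smaller shares. The mean shares were then 2.35% without added iron and 2.14% with 1.5 µM, again without overlap between the groups. The size of that difference in points is therefore not comparable with 4.47.

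Of the genes named, those that changed sign and were called in either setting were, under quantile normalization, RPL3 (0.18), RPL4 (0.37), RPLP0 (0.44), RPLP1 (0.26), RPLP2 (0.18), RPL37A (0.21), RPL37C (0.61), RPS28 (0.15), RPS6 (0.58), RPS27A (0.090), RPL5 (0.38), RPL13B (0.49), RPL19A (0.43), RPSA1B (0.44), RACK1 (0.50) and EIF5A (0.23). With equal sums they were RPL13C (0.043), RPLP1 (0.12), RPL37A (0.17), RPL37C (0.19), RPS28 (0.18), RPS6 (0.23), RPS27A (0.19), RPL13B (0.16), RPL19A (0.11), RPL19B (0.20) and RPL24A (0.11). A further 4 under quantile normalization (RPL19B, RPL24A, RPS4 and RPS18, at 0.043 to 0.085) and 10 with equal sums (RPLP0, RPLP2, RPL5, RPL24B, RPS4, RPS18, RPSA1B, RPL7AE, RACK1 and RAPTOR1, at 0.020 to 0.19) changed sign without a call in either setting. The cause was not tested. Read depth was not used here, and the levels of RPL24B and RPS18 rest on the lowest FPKM of the group.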
